A study of Mus musculus with 35 samples.

Results

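The circadian clock genes described here are the core clock genes Per1, Per2, Per3, Cry1, Cry2, Clock, Nr1d1 and Nr1d2 and the clock output genes Dbp and Tef. They were taken as every probe set that the array annotation gives to these symbols alone, which found all 10 genes with 24 probe sets, of 18193 genes and 45037 probe sets that are not array controls. The study set β2 adrenergic receptor knockout mice against wild-type mice after stroke, on Affymetrix arrays of total RNA from 1 brain hemisphere. All mice were male and of the FVB background, and their age is not given in the sources used here. KO MCAO (7 arrays) is the ischemic hemisphere of knockouts 24 h after middle cerebral artery occlusion, which blocks the main artery to the side of the forebrain, and KO sham (3 arrays) is the same-side hemisphere of knockouts 24 h after sham surgery. WT MCAO (7 arrays) and WT sham (3 arrays) are the wild-type counterparts, and KO naive (7 arrays) and WT naive (8 arrays) are hemispheres of mice without surgery. The receptor deletion is not limited to a cell type by the labels, and a hemisphere pools infarct, tissue around it and deep structures. The time of day at which brains were taken, on which the level of most of these genes depends, is not given in the sources used here.

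As background, the clock is a feedback loop of transcription. The proteins CLOCK and BMAL1 (the product of Arntl) bind E-boxes and switch on the Per and Cry genes, whose proteins gather, enter the nucleus and block CLOCK and BMAL1. The nuclear receptors REV-ERBα and REV-ERBβ (Nr1d1 and Nr1d2) repress Arntl, and the transcription factors DBP, TEF and HLF pass the rhythm on through D-boxes, where NFIL3 acts against them. Besides the suprachiasmatic nucleus, which sets the body's time, cells of the cortex and striatum carry this loop. Per1 and Per2 also respond to signals that act through cyclic AMP, the messenger that the β2 adrenergic receptor raises.

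Promoter sequence is shown for Per3 and Cry1, whose changes after stroke passed a test of difference between genotypes. Both calls depended on single arrays. Sequence is also shown for Per1, which no comparison called, because it holds the E-box and the cyclic AMP letters of the background above. RefSeq promoters of build GRCm38.p6 cover 9 of the 10 genes with 13 start sites. For Per1, upstream means the more upstream of its start sites covered here. The gene's RefSeq coordinates begin further upstream, at 69095108. Letters were searched on both strands from 250 bases before to 50 bases after each start. Capitals mark the D-box TTATGTAA in Per3 and, in Cry1 and Per1, the E-box CACGTG and the cyclic AMP element core TGACG.
Per3, chr4:151044766-151044915, minus strand, the first 150 of the 250 bases before the start: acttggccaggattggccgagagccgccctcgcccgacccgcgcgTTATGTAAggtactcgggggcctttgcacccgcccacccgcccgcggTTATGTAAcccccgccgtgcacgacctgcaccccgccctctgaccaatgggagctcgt
Cry1, chr10:85185055-85185204, minus strand, the last 150 bases before the start: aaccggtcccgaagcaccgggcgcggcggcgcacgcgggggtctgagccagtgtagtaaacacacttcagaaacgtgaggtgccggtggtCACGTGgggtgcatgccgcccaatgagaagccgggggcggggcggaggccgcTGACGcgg
Per1, chr11:69098699-69098848, plus strand, the first 150 of the 250 bases before the start of its upstream transcript: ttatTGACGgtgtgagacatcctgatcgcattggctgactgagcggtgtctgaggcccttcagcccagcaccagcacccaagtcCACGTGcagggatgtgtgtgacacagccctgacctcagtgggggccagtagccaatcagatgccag

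The E-box was found for Cry1, Per1 and Tef, in 4 of the 13 clock gene promoters, against 7.15% of all 32851 promoters of the same length. Per3 held the D-box letters at 2 places, and 1.06% of all promoters held a D-box (TTATGTAA or TTACGTAA) at least once, 0.0244% at 2 places or more. The core TGACG was found for Cry1, Cry2 and Per1, in 4 of the 13 clock gene promoters (20.8% of all promoters). Neither the full site TGACGTCA (1.79%) nor the REV-ERB element core TAGGTCA (2.61%) was found in any of the 13. These matches describe the letters only.

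The values are log2 signals after RMA, so 1 unit is a doubling, and surgery and naive arrays, normalized apart, are never set against each other. The correlation between surgery arrays over all probe sets was 0.958 to 0.998. Among naive arrays it was 0.978 to 0.999 once WT naive array 6 was set aside, which reached only 0.805 to 0.83 with the others. The naive comparisons of clock genes are therefore given with and without it. Naive marker counts and naive gene counts under other processing settings keep it. On this array the signal of actin's 3′ end was 4.88 log2 units above its 5′ end. The same actin difference, a measure of RNA integrity and labelling, was 1.66 ± 0.08 in KO sham and 0.93 ± 0.08 in WT sham (SD, n = 3 each), and it averaged 1.01 ± 0.52 in KO MCAO and 0.87 ± 0.44 in WT MCAO (n = 7 each). Array medians were 7.02 to 7.05 in KO naive and 6.87 to 6.94 in WT naive, and the lowest signal of an array was 3.19 to 3.28 in KO naive and 3.49 to 3.73 in WT naive. Genotype and array distribution cannot be told apart there, and whether both genotypes were normalized in 1 run is not given in the sources used here. The labels do not say whether the arrays of a group stand for different mice, so a p-value here covers the spread among arrays, which may be technical.

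In wild-type mice 4 of the 10 clock genes were lower after the stroke and none was higher. Those that passed the test in WT MCAO against WT sham were Per2, Dbp, Per3 and Cry2 (limma over all genes, Benjamini-Hochberg adjusted p under 0.05), where 15.9% of all genes passed. All 10 log2 changes were below 0, with a median of -0.38, against 0.046 over all genes. The arrays of WT MCAO lay wholly below those of WT sham for 6 of the 10, the 4 called genes, Cry1 and Nr1d2. The share of all genes separated like this was not counted, so this count has no background to set it against. In bulk tissue, fewer cells that express a gene and less RNA per cell cannot be told apart.

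Dbp (chr7:45705100-45710203), an output transcription factor whose mRNA swings widely over the day in many tissues, had log2 signals from 9.04 to 10.59 in WT MCAO with a median of 10.18, against 11.78, 11.48 and 11.49 in WT sham. Every WT MCAO array was below every WT sham array, and the lowest, array 4, stood apart from its group. The log2 change was -1.49 (SE 0.26, limma adjusted p = 0.000647), a signal 2.81-fold lower. Without WT MCAO array 4 it was -1.32 (adjusted p = 0.000251).

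Per2 (chr1:91415977-91459351), a repressor of the loop, had log2 signals from 7.45 to 7.86 in WT MCAO with a median of 7.69, against 9.35, 8.83 and 8.79 in WT sham. The 7 WT MCAO arrays lay close together, SD 0.13, and all were below WT sham. The log2 change was -1.31 (SE 0.20, limma adjusted p = 0.000191), or 2.48-fold lower. Per2 and Dbp passed the test under all 31 other settings and left-out arrays tried, with log2 changes of -1.41 to -0.89 for Per2 and -1.57 to -1.32 for Dbp.

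Per3 (chr4:150997018-151044707), the third Period gene, whose loss leaves the mouse clock running, had log2 signals from 7.72 to 8.65 in WT MCAO with a median of 8.54, against 9.47, 8.87 and 8.91 in WT sham. The groups did not overlap, and the log2 change was -0.67 (SE 0.20, limma adjusted p = 0.0246). Cry2 (chr2:92403646-92434085), a partner of the PER proteins in repression, ran from 9.05 to 9.49 in WT MCAO with a median of 9.31, against 10.14, 9.76 and 9.77 in WT sham, and its log2 change was -0.60 (SE 0.18, adjusted p = 0.0255). For both genes WT sham array 1 was the highest array. Without it the log2 changes were -0.47 for Per3 (adjusted p = 0.199) and -0.47 for Cry2 (adjusted p = 0.172), neither of which passed, and Cry2 did not pass without WT sham array 3 either (log2 change -0.66, adjusted p = 0.0524).

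The other 6 genes did not pass in wild type. Nr1d2 (chr14:18204056-18239106), which codes for REV-ERBβ, had a log2 change of -0.45 (SE 0.17, limma adjusted p = 0.0721), with WT MCAO array 4 at 10.03 below the remaining range of 10.84 to 11.14. Without that array the change was -0.32 and passed (adjusted p = 0.0444). Cry1 (chr10:85131700-85185054), the second Cryptochrome repressor here, had a change of -0.31 (adjusted p = 0.139). Per1 (chr11:69095108-69109965) and Clock (chr5:76209868-76305603), the activator, had changes of -0.03 and -0.003, Nr1d1 (chr11:98767932-98775377) of -0.22, and Tef (chr15:81802673-81826863) of -0.21. Cell type markers moved in the same arrays. In WT MCAO against WT sham, 2 of 9 neuron markers, 1 of 4 striatal neuron markers and 4 of 6 microglia markers were lower, and 3 of 5 oligodendrocyte, 3 of 6 endothelium, 2 of 7 astrocyte and 2 of 6 infiltrating myeloid markers were higher. Of 9 markers of the hypothalamus and suprachiasmatic nucleus, 1 was higher and 1 lower, and none of 6 choroid plexus markers passed. The mean log2 signal of the neuron list was 11.87 to 12.28 in WT MCAO and 12.25 to 12.43 in WT sham, and that of the microglia list was 6.27 to 6.87 in WT MCAO and 7.70 to 7.91 in WT sham. The part of these shifts in the clock gene result was not tested.

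**Figure D1:**
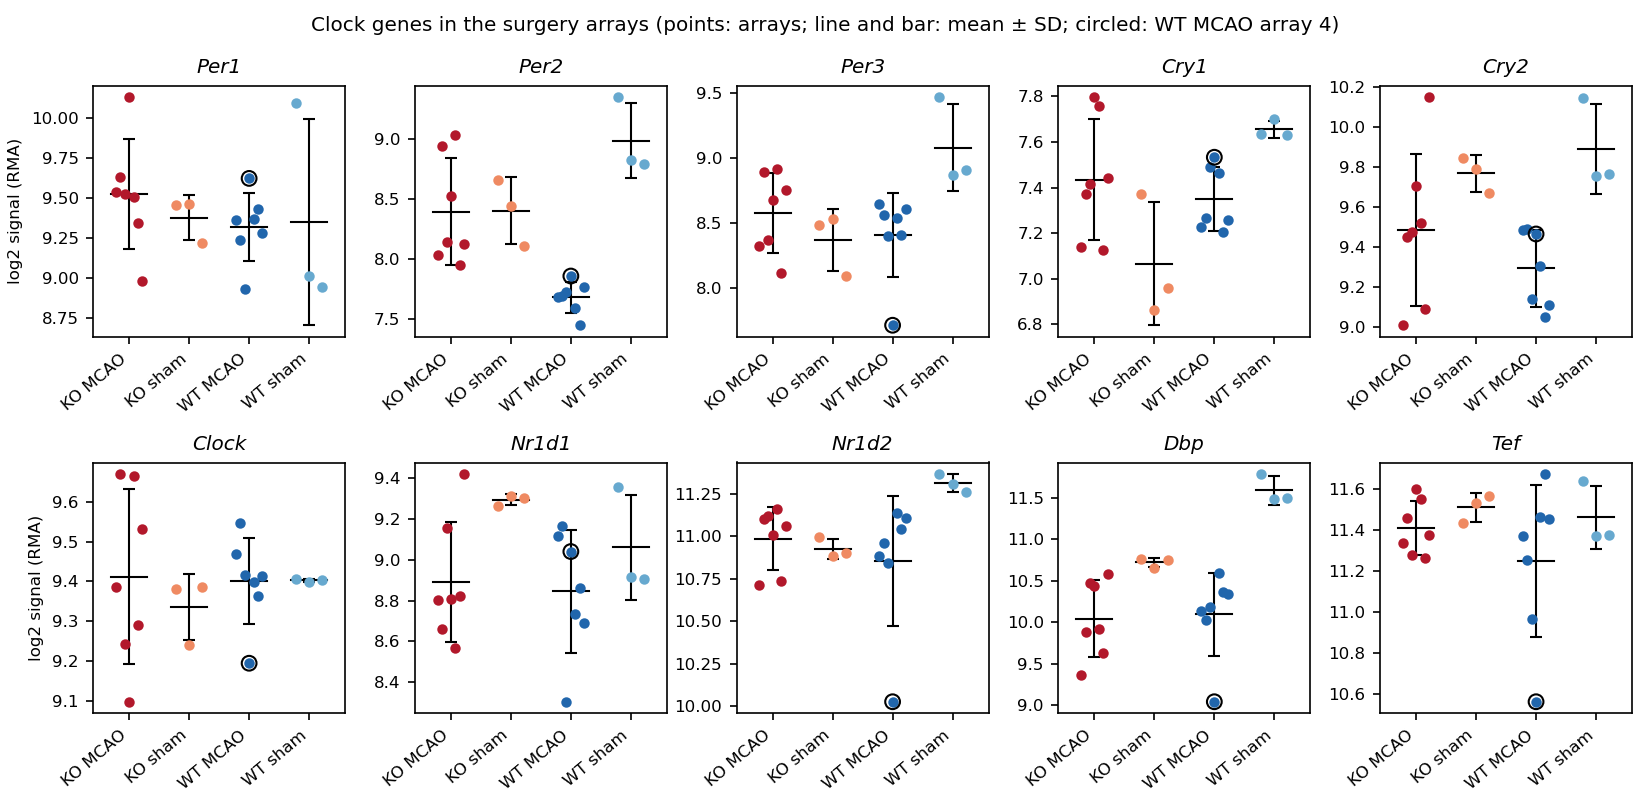
Log2 RMA signal of the 10 clock genes on the 20 surgery arrays, 1 panel a gene with its own vertical scale, groups from left to right KO MCAO, KO sham, WT MCAO and WT sham; points are arrays, the line and bar are the mean ± SD, and WT MCAO array 4 is circled. Per2 in WT MCAO lies between 7.45 and 7.86, below all other groups, and Dbp in WT sham lies between 11.48 and 11.78, above all other groups.

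In knockout mice none of the 10 clock genes passed the same test after the stroke, where 25% of all genes passed. The median log2 change of the 10 was 0.02, against -0.005 over all genes, with 5 changes above 0 and 5 below. At an unadjusted p under 0.05 there were 3: Dbp, Nr1d1 and Cry1. Per2 had log2 signals from 7.95 to 9.04 in KO MCAO with a median of 8.14, against 8.66, 8.45 and 8.11 in KO sham, so the groups overlapped. Its log2 change was -0.01 (SE 0.20, limma adjusted p = 0.978), with a 95% interval of -0.43 to 0.41.

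Dbp in knockouts ran from 9.37 to 10.59 in KO MCAO with a median of 9.92, against 10.76, 10.66 and 10.75 in KO sham. All KO MCAO arrays were below KO sham, as in wild type, and the log2 change of -0.68 (SE 0.26, limma adjusted p = 0.0628) missed the threshold. Dbp passed in knockouts under 7 other settings, among them without KO MCAO array 3 (-0.75, adjusted p = 0.0497), without KO MCAO array 7 (-0.77, adjusted p = 0.0343), without WT MCAO array 4, which changes only the spread (adjusted p = 0.0175), and with the actin difference as a covariate (-1.20, adjusted p = 0.00038). Nr1d1, the REV-ERBα gene, had a log2 change of -0.40 (SE 0.18, adjusted p = 0.0975), and passed without KO MCAO array 7 (-0.49, adjusted p = 0.0308). Cry1 had a log2 change of 0.37 (SE 0.14, adjusted p = 0.0564), above 0 where wild type was below it. It passed without KO sham array 1 (0.52, adjusted p = 0.0208), without KO MCAO array 1 (0.42, adjusted p = 0.0297), without KO MCAO array 6 (0.42, adjusted p = 0.0305) and without WT MCAO array 4 (0.37, adjusted p = 0.0488). The marker lists that moved in KO MCAO were microglia (4 of 6 lower), endothelium (3 of 6 higher), oligodendrocytes (2 of 5 higher), astrocytes (2 of 7 higher) infiltrating myeloid cells (2 of 6 higher, 3 lower), and hypothalamus and suprachiasmatic nucleus (1 of 9 lower). None of the 9 neuron, 4 striatal neuron or 6 choroid plexus markers passed.

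The difference between these changes, knockout minus wild type, was tested as an interaction. It passed for 3 of the 10 clock genes, Per2, Per3 and Cry1, all with a positive difference, where 9.59% of all genes passed. The median over the 10 was 0.41, against 0.029 over all genes, and 9 of 10 were above 0. For Per2 the log2 change was -0.01 in knockouts and -1.31 in wild type, and the difference was 1.30 (SE 0.29, limma adjusted p = 0.0182). For Per3 the changes were 0.21 and -0.67 and the difference 0.88 (SE 0.28, adjusted p = 0.0495). For Cry1 they were 0.37 and -0.31 and the difference 0.68 (SE 0.20, adjusted p = 0.0389).

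Dbp (0.81, SE 0.37, limma adjusted p = 0.139) and Nr1d2 (0.51, SE 0.24, adjusted p = 0.147) had positive differences that did not pass. The 95% interval of Dbp was 0.04 to 1.59. With the actin difference as a covariate the changes of Dbp were -1.20 in knockouts and -1.54 in wild type, closer together than the -0.68 and -1.49 without it. The remaining 5 differences lay between -0.19 for Nr1d1 and 0.31 for Cry2.

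These 3 calls depended on single arrays. Per2 did not pass without WT sham array 1 (1.12, adjusted p = 0.0586), without KO sham array 2 (1.32, adjusted p = 0.0502) or without KO sham array 3 (1.15, adjusted p = 0.0806), and it passed with each other array left out. Without KO sham array 3 no gene of the table passed the interaction (limma, 0 of 18193), and without WT sham array 1 the count over all genes was 100, against 1744. Cry1 passed in 15 of 29 other settings, and its value over all 29 was 0.58 to 0.83. It did not pass without WT sham array 1, 2 or 3, KO sham array 2 or 3, KO MCAO array 2, 3 or 5, or WT MCAO array 1, 6 or 7 (0.58 to 0.69, adjusted p of 0.0516 to 0.124). Per3 passed in 8 of 30, and its value over all 30 was 0.50 to 0.99. It passed without KO MCAO array 1 or 6 or WT MCAO array 4 or 5, and with no other array left out (0.69 to 0.99, adjusted p of 0.0515 to 0.159 where it did not pass). The actin difference was higher in KO sham than in the other 3 groups, and with it as a covariate none of the 3 passed: Per2 1.27 (adjusted p = 0.0579), Per3 0.64 (adjusted p = 0.17) and Cry1 0.59 (adjusted p = 0.125). Markers also differed in this contrast, with 3 of 6 microglia markers positive, and 3 of 6 infiltrating myeloid and 1 of 9 hypothalamus and suprachiasmatic nucleus markers negative. Their part in the clock gene differences was not tested.

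**Figure D2:**
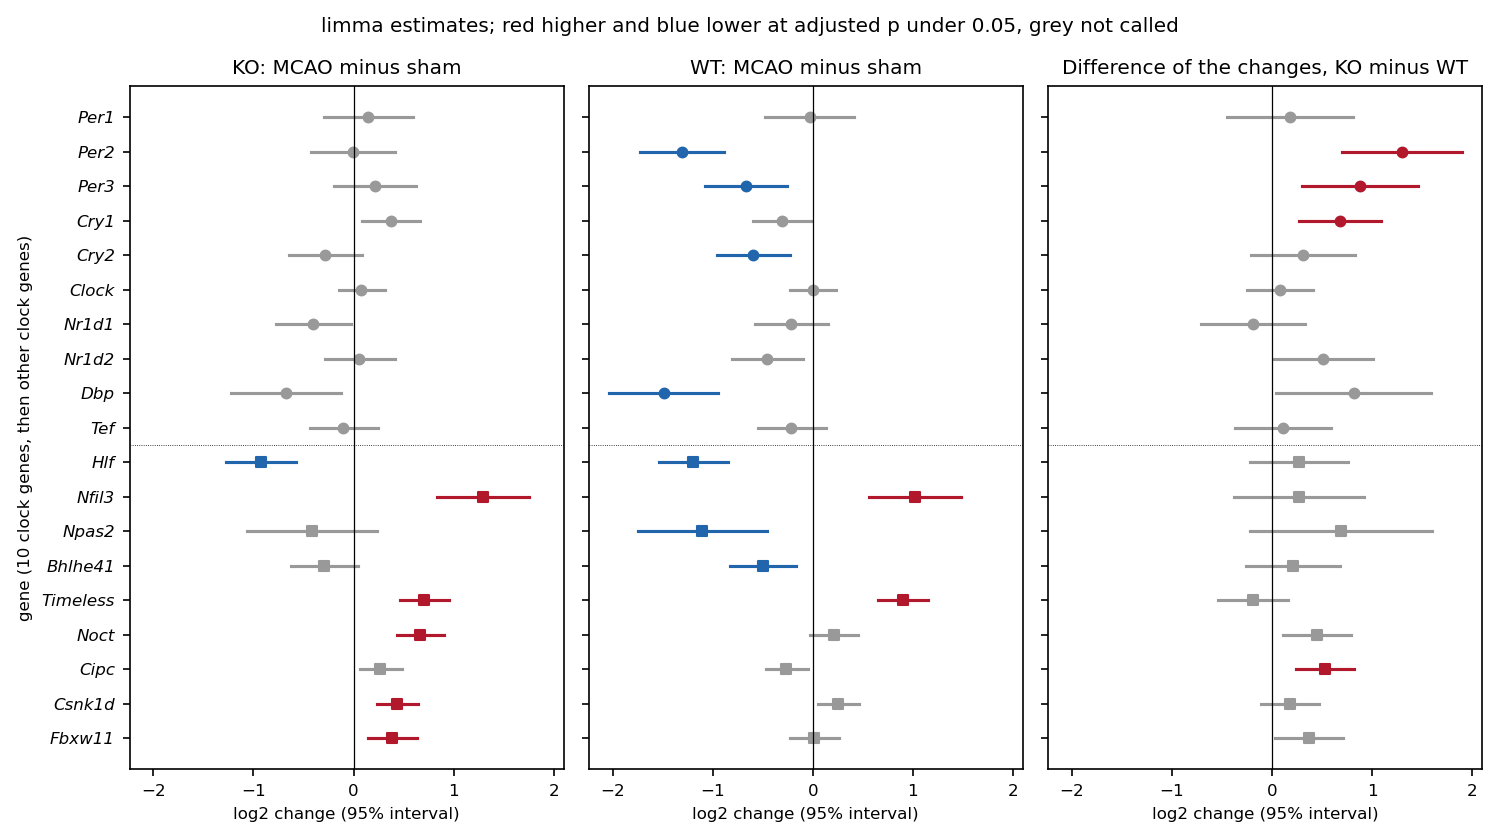
Log2 change with its 95% interval (limma) for the 10 clock genes (circles, above the dotted line) and 9 other clock genes (squares), in knockouts (left), in wild type (middle) and as the difference of the changes, knockout minus wild type (right), on 1 horizontal scale. Per2 stands at -0.01 in knockouts and -1.31 in wild type, while Hlf and Nfil3 stand on the same side of 0 in both genotypes.

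The interaction has both surgeries in it, so the genotypes were also set against each other after each one. These contrasts share arrays with those above and are not further evidence. After MCAO no clock gene passed, where 0.044% of all genes did (8 of 18193, limma). Of the 10, 1 had an unadjusted p under 0.05, Per2, where 3165 of all 18193 genes had. Per2 had log2 signals of 7.95 to 9.04 in KO MCAO, against 7.45 to 7.86 in WT MCAO, and these 7 and 7 arrays did not overlap. The difference was 0.71 (SE 0.16, unadjusted p = 0.000179, adjusted p = 0.102). The other 9 genes differed by -0.05 to 0.21 log2 units and overlapped.

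After sham surgery 1 of the 10 clock genes passed, Cry1, lower in knockouts, where 6.05% of all genes passed. Its log2 signals were 7.37, 6.86 and 6.96 in KO sham, against 7.64, 7.70 and 7.63 in WT sham. The difference was -0.59 (SE 0.17, limma adjusted p = 0.0404). In the same contrast 1 of 5 oligodendrocyte and 1 of 6 microglia markers were lower, and 1 of 6 infiltrating myeloid and 1 of 9 hypothalamus and suprachiasmatic nucleus markers were higher, and their part was not tested. The 10 genes had a median of -0.25, against 0.017 over all genes. The arrays of KO sham lay wholly below WT sham for 6 of the 10: Per2, Per3, Cry1, Clock, Nr1d2 and Dbp. Clock is among these 6 with a difference of only -0.07 (limma adjusted p = 0.773). The share of all genes separated like this was not counted, and with so few sham arrays the count has no background to set it against. The actin difference also separated KO sham from WT sham, and its part in this count was not tested.

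Dbp was at 10.76, 10.66 and 10.75 in KO sham, against 11.78, 11.48 and 11.49 in WT sham. The gap of -0.87 (SE 0.31, adjusted p = 0.0891) missed the threshold. Per3 was at 8.49, 8.53 and 8.10 in KO sham, against 9.47, 8.87 and 8.91 in WT sham (-0.71, SE 0.23, adjusted p = 0.0674). Per2 differed by -0.59 (SE 0.24, adjusted p = 0.13). Without WT MCAO array 4, which enters through the shared spread, 4 genes passed, Cry1, Per3 (adjusted p = 0.0291), Dbp (adjusted p = 0.0305) and Nr1d2 (adjusted p = 0.0478). The share of all genes in that fit is not given here. Over the fits with 1 array left out, 0 to 1830 of all genes passed after sham, against 1101 with all arrays. Cry1 did not pass with any of 5 sham arrays left out, WT sham 1, 2 or 3 or KO sham 2 or 3, with differences of -0.60 to -0.49 and adjusted p of 0.0835 to 0.18. With the actin difference as a covariate it was -0.48 (adjusted p = 0.236).

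Of the 10 genes, 4 have 1 probe set and 6 have several, which were all tested over 45037 probe sets. In wild type 7 of the 24 probe sets were lower after MCAO and none higher, where 10.7% of all probe sets passed, and 23 of 24 changes were below 0. All 3 Per2 sets passed (1417602_at -1.31, 1417603_at -0.73 and 1457350_at -0.65), as did both Dbp sets (1438211_s_at -1.49 and 1418174_at -1.40), while 1 of the 6 Per3 sets did. In knockouts 3 of 24 passed, where 18.7% of all probe sets did: Clock 1418659_at was higher (0.67, limma adjusted p = 0.000711), and Per2 1417603_at (-0.56, adjusted p = 0.0368) and Dbp 1418174_at (-1.11, adjusted p = 0.00565) were lower. The second Dbp set thus had changes of -1.11 in knockouts and -1.40 in wild type, with a difference of 0.29 (adjusted p = 0.627).

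The probe sets of Per2 did not agree on the difference between genotypes. The interaction was 1.30 for 1417602_at (adjusted p = 0.0204), 0.48 for 1457350_at (adjusted p = 0.164) and 0.17 for 1417603_at (adjusted p = 0.689), and the mean of the 3 sets gave 0.65 (adjusted p = 0.0555). Among the 6 Per3 sets it lay between 0.01 and 1.41 and none passed over all probe sets. In all, 3 of 24 passed, all positive, where 7.41% of all probe sets did, the third besides Per2 and Cry1 being Clock 1418659_at (0.71, adjusted p = 0.0235).

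That Clock set was at 9.34 ± 0.12 in KO MCAO, 8.67 ± 0.09 in KO sham, 9.13 ± 0.24 in WT MCAO and 9.17 ± 0.02 in WT sham (mean ± SD), so KO sham was the low group. The other 3 Clock sets had interactions of 0.08 to 0.24 and did not pass. After sham 2 of 24 sets were lower in knockouts, Cry1 and Clock 1418659_at (-0.50, adjusted p = 0.0463), where 4.67% of all probe sets passed. After MCAO none of the 24 differed between genotypes, where 0.131% passed (limma, 59 probe sets). Of the 24, 5 had an unadjusted p under 0.05, and the share of all probe sets at that cut was not counted.

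**Figure D3:**
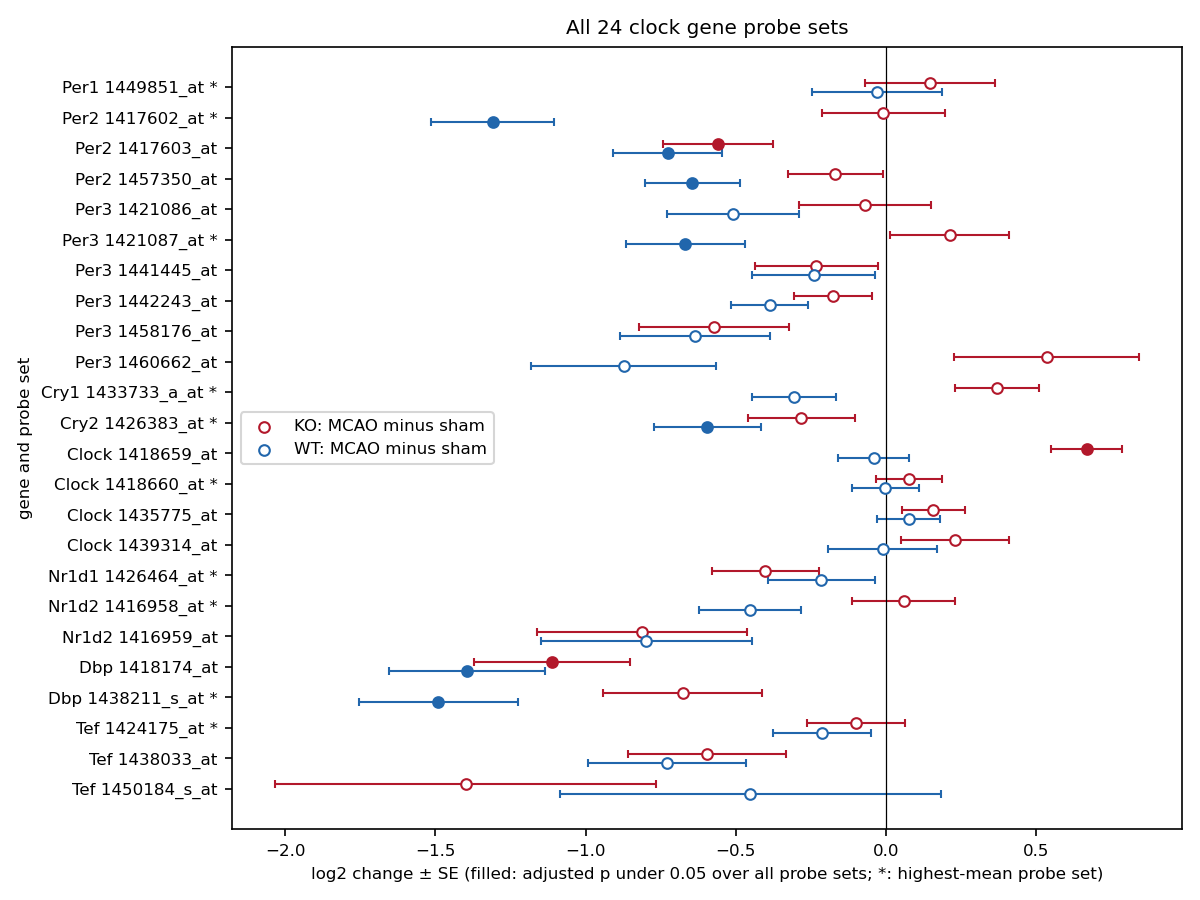
Log2 change ± SE after MCAO against sham for all 24 clock gene probe sets, in knockouts (red) and wild type (blue), with filled points for an adjusted p under 0.05 over all probe sets and an asterisk at the set with the highest mean of its gene. Of the wild-type points 7 are filled, all below 0, and the 3 filled knockout points are Per2 1417603_at, Clock 1418659_at and Dbp 1418174_at.

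Of 21 further clock genes, listed by their known place in the loop, 19 were on the arrays. After MCAO 5 were higher and 1 lower in knockouts, where 25% of all genes passed. In wild type 2 were higher and 3 lower, where 15.9% of all genes passed. Of the D-box factors, Hlf and Nfil3 passed in both genotypes and Tef in neither. Dbp passed in wild type, and in knockouts its second probe set passed (-1.11, limma adjusted p = 0.00565 over all probe sets). The interaction of Dbp passed with neither set. Hlf, the third activator beside Dbp and Tef, was lower by MCAO in knockouts (-0.93, SE 0.17, limma adjusted p = 0.000469) and in wild type (-1.20, SE 0.17, adjusted p = 6.13e-05), and Nfil3, the repressor at the same sites, was higher in knockouts (1.29, SE 0.22, adjusted p = 0.000314) and in wild type (1.02, SE 0.22, adjusted p = 0.00344). The interaction was 0.27 for both and passed for neither (adjusted p = 0.431 and 0.556).

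Among activators, Npas2, which can stand in for CLOCK, was lower in wild type (-1.10, adjusted p = 0.0194), and its change in knockouts was -0.41 (adjusted p = 0.334). Arntl did not pass in either genotype (-0.06 in knockouts, -0.45 in wild type, adjusted p = 0.0666). The E-box repressor Bhlhe41 was lower in wild type (-0.50, adjusted p = 0.0371). Timeless, better known in mammals for replication forks than for the clock, was higher in knockouts (0.71) and wild type (0.90). In knockouts Noct, a rhythmic NADP(H) phosphatase, was higher by 0.67, the kinase gene Csnk1d by 0.43 and the ubiquitin ligase gene Fbxw11 by 0.39. Their changes in wild type were 0.21, 0.25 and 0.015, none of which passed, and none of the 3 passed the interaction (limma adjusted p = 0.0728, 0.373 and 0.127). The products of Csnk1d and Fbxw11 mark PER proteins for decay.
Of these 19 genes 1 passed the interaction, where 9.59% of all genes did: Cipc, whose product inhibits CLOCK (0.53, limma adjusted p = 0.0299). Cipc was also the gene of the 19 that was lower in KO sham than in WT sham (-0.48, adjusted p = 0.0283), where 6.05% of all genes passed.

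For each clock gene called in the surgery arrays, the 3 genes of the whole table with the highest Pearson r over the 20 surgery arrays, after subtraction of group means, were listed as a description. They were Cask, Septin3 and Etnk1 for Per2 (0.89 to 0.91), Taf5, Camk2g and Klhl8 for Per3 (0.91 to 0.92), and Cacna1a, Marchf5 and Mia3 for Cry2 (0.90 to 0.92). For Dbp they were Idh3b, Babam1 and Prpf6 (0.91 to 0.94), and for Cry1 Tbc1d15, Utrn and Ascc3 (0.85 to 0.91). No other clock gene was among these nearest genes. All 20 arrays share 1 normalization, and Dbp also followed the arrays' actin difference within groups (Pearson r = -0.79 over 20 arrays, permutation p = 0.00299, adjusted p = 0.0236; Spearman rho = -0.63, permutation p = 0.0177, adjusted p = 0.118; r = -0.68 without the 2 arrays farthest from the median).

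In naive mice none of the 10 clock genes differed between knockouts and wild type, where 14.7% of all genes passed (limma), and none had an unadjusted p under 0.05. Of the markers, 2 of 6 for microglia, 1 of 6 for endothelium and 1 of 4 for striatal neurons were higher in KO naive, and 3 of 6 for infiltrating myeloid cells and 1 of 9 for the hypothalamus and suprachiasmatic nucleus were lower. These marker counts keep WT naive array 6. WT naive array 6 widened the spread. Without it again none of the 10 passed, where 36.5% of all genes did, with Clock at 0.14 (SE 0.07, limma adjusted p = 0.108) and Dbp at 0.15 (SE 0.07, adjusted p = 0.107). The other differences without that array lay between -0.14 for Nr1d2 and 0.20 for Per1.

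Per2 was at 8.62 to 9.16 with a median of 8.74 in KO naive, against 8.18 to 10.31 with a median of 8.71 in WT naive, where 10.31 is array 6. Dbp was at 11.43 to 11.72 with a median of 11.55 in KO naive, against 10.76 to 11.63 with a median of 11.39 in WT naive, where 10.76 is array 6. Cry1, which was lower in KO sham, was at 7.40 to 7.72 in KO naive and 6.96 to 8.84 in WT naive, and its difference was -0.02 with array 6 (SE 0.20, adjusted p = 0.954) and 0.15 without it (SE 0.10, adjusted p = 0.264). The groups overlapped for all 10 genes.

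Of the 24 probe sets 1 passed, Per3 1441445_at, where 20.1% of all probe sets did. It was at 7.08 to 7.17 in KO naive and 5.92 to 6.49 in WT naive, with no overlap, and differed by 0.90 (SE 0.08, limma adjusted p = 8.64e-06). On the surgery arrays the same set differed by -0.36 after sham (adjusted p = 0.378) and -0.35 after MCAO (adjusted p = 0.281). Without array 6, 6 sets passed, 4 higher and 2 lower in knockouts, where 39.8% of all probe sets did. Of them 5 belong to Per3 and point both ways: 1441445_at 0.93, 1442243_at 0.34 and 1458176_at 0.20 were higher, and 1421086_at -0.53 and 1460662_at -0.40 lower, while the set with the highest signal, 1421087_at, was at -0.05 (adjusted p = 0.741). The direction of Per3 in naive knockouts thus differed by probe set.

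Among the 19 further clock genes 2 were higher in KO naive, Npas2 (0.26, limma adjusted p = 0.0168) and Bhlhe41 (0.34, adjusted p = 0.0175), where 14.7% of all genes passed. Without array 6 there were 7, all higher: Npas2, Bhlhe41, Rorb, Nfil3, Csnk1e, Timeless and Noct, by 0.17 to 0.32. In that fit 36.5% of all genes passed, 4389 higher and 2252 lower in knockouts, so 7 of 19 is near the share over all genes. Centring each naive array on its median moved the median difference of all genes to -0.10, against 0.05 as deposited. That shift was computed with array 6 kept, and the part of normalization in these differences was not tested.

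**Figure D4:**
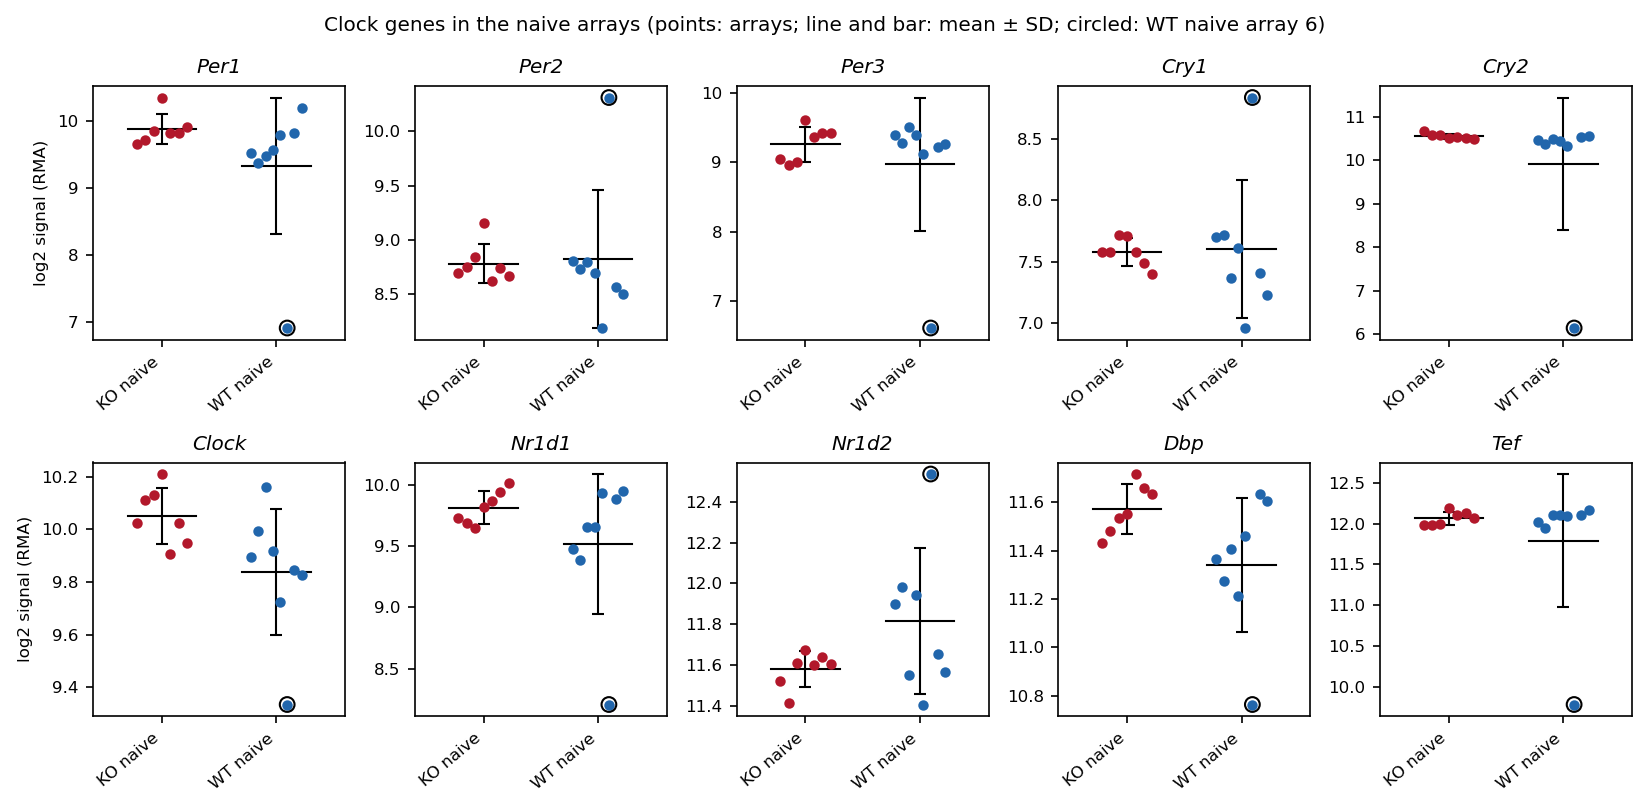
Log2 RMA signal of the 10 clock genes on the 15 naive arrays, KO naive left and WT naive right, with a vertical scale for each gene; points are arrays, the line and bar are the mean ± SD, and WT naive array 6 is circled. Array 6 is the highest or the lowest WT naive array in every panel, for example 10.31 for Per2 and 6.14 for Cry2, and the other arrays of both genotypes overlap.

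Some pairs of clock genes varied together over the arrays of a group. The share among pairs of all genes was not computed, here or for the surgery arrays below. Whether such pairs are more frequent among clock genes was therefore not tested. Over the 14 naive arrays without array 6, each taken as its deviation from the group mean, 7 of the 45 pairs of clock genes were correlated (permutation within groups, adjusted over the 45). Per2 and Clock rose and fell together (Pearson r = 0.83, permutation p = 0.00043, adjusted p = 0.0165; Spearman rho = 0.90, permutation p = 3e-05, adjusted p = 0.00135; r = 0.77 without the 2 farthest arrays). Cry1 and Nr1d1 moved in opposite directions (r = -0.83, permutation p = 0.00136, adjusted p = 0.0165; rho = -0.85, permutation p = 0.00113, adjusted p = 0.0254; r = -0.80 without the 2 farthest). Both pairs had the same sign in each genotype, with r = 0.88 for Per2 and Clock in KO naive and 0.80 in WT naive, and r = -0.77 for Cry1 and Nr1d1 in KO naive and -0.86 in WT naive (7 arrays each).

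The other 5 pairs passed by Pearson r and not by rho, whose adjusted permutation p was 0.06 to 0.0795. Nr1d1 went with Dbp (r = 0.75, rho = 0.77) and with Tef (r = 0.72, rho = 0.64), Per1 with Tef (r = 0.75, rho = 0.61), and Cry1 with Per2 (r = 0.78, rho = 0.69) and Nr1d2 (r = 0.83, rho = 0.74). The last pair had r = 0.10 in KO naive and 0.95 in WT naive. Nr1d1 had coefficients of -0.58 with Per2, -0.55 with Nr1d2 and -0.58 with Clock, none of which passed. The sign for Clock turned with array 6 kept (0.56), and for Nr1d2 it was positive in KO naive (0.50).

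The spread of signal on an array moved with some of these genes (10 genes and 2 array measures, p adjusted over 20 relations). Within groups of the same 14 arrays the interquartile range of all probe sets went with Cry1 (r = 0.83, permutation p = 0.00104, adjusted p = 0.0105; rho = 0.76, permutation p = 0.00642, adjusted p = 0.0561; r = 0.57 without the 2 farthest) and against Nr1d1 (r = -0.84, permutation p = 0.00105, adjusted p = 0.0105; rho = -0.82, permutation p = 0.00183, adjusted p = 0.0366; r = -0.81 without the 2 farthest). For Per2 (r = 0.59, permutation p = 0.0388) and Clock (r = 0.50, permutation p = 0.0955) it did not pass. The part of array spread in the pairs of clock genes was not tested. After each array was centred on its median 6 of the 45 pairs passed, and Nr1d1 with Dbp no longer did. With array 6 kept, 18 of 45 pairs passed, 10 positive and 8 negative.

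Over the 20 surgery arrays 4 of the 45 pairs passed, all positive: Nr1d2 with Dbp (r = 0.84, permutation p = 0.00113, adjusted p = 0.028; rho = 0.60, permutation p = 0.0117, adjusted p = 0.105), Nr1d2 with Tef (r = 0.81, rho = 0.64), Nr1d2 with Per3 (r = 0.76, rho = 0.61) and Per3 with Tef (r = 0.69, rho = 0.60), with the same adjusted p of 0.028 by r and 0.105 by rho. Without the 2 farthest arrays r was 0.69, 0.49, 0.61 and 0.35. WT MCAO array 4 was low in Per3, Nr1d2, Dbp and Tef, and without it r was 0.70, 0.50, 0.59 and 0.45. On the 14 MCAO arrays alone no pair passed (lowest adjusted permutation p = 0.052), and the same 4 pairs had r of 0.72 to 0.85. Nr1d1 and Dbp, which went together in naive mice, had r = 0.14 on the surgery arrays, and Cry1 and Nr1d1 had r = -0.22. Dbp (r = 0.69, permutation p = 0.00354, adjusted p = 0.0236; rho = 0.63, permutation p = 0.00807, adjusted p = 0.118; r = 0.54 without the 2 farthest) and Per3 (r = 0.68, permutation p = 0.00342, adjusted p = 0.0236; rho = 0.55, permutation p = 0.0258, adjusted p = 0.129; r = 0.48 without the 2 farthest) also went with the interquartile range of the surgery arrays. Its part in these pairs was not tested. Whether the coefficients differ between surgery and naive arrays was not tested.

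**Figure D5:**
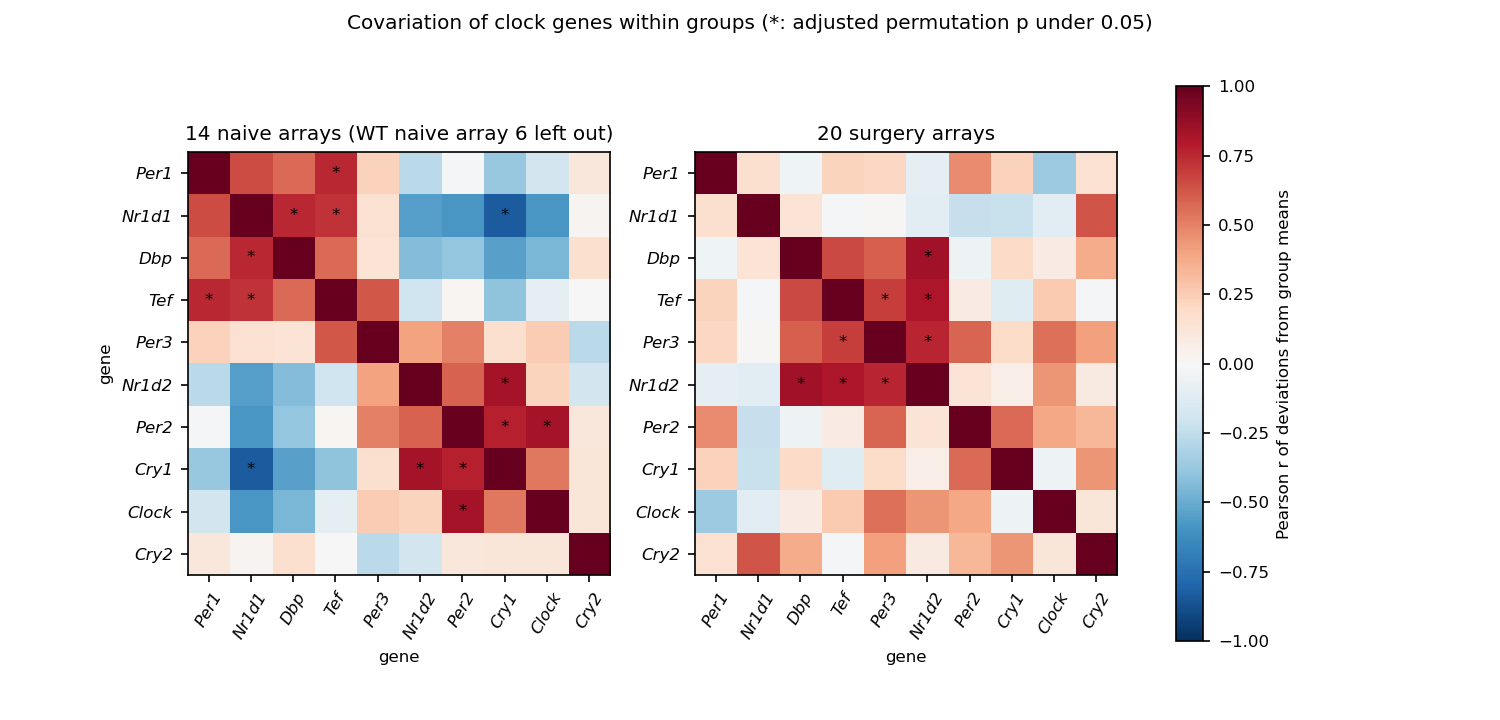
Pearson r (colour, red positive and blue negative) of each pair of clock genes over arrays after subtraction of group means, for 14 naive arrays without WT naive array 6 (left) and 20 surgery arrays (right), with an asterisk for an adjusted permutation p under 0.05. On the left Cry1 and Nr1d1 stand at -0.83 and Per2 and Clock at 0.83, and on the right the 4 marked pairs involve Nr1d2, Dbp, Tef and Per3.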

How the data were processed

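Total RNA of 35 brain hemispheres was labelled with biotin and hybridised to Affymetrix mouse arrays, 1 colour, per the labels' protocols. The deposited values are log2 signals made by the authors with RMA, which the submitters' processing notes name; its version and options are not given in the sources used here. Per the series' design text the authors processed the 15 naive arrays separately, so their levels are not set against those of the 20 surgery arrays. Whether KO naive and WT naive shared 1 run is not given in the sources used here, and their array distributions differ, which could shift naive differences. RMA draws arrays of a set to 1 distribution, so a shift shared by most genes is not seen, and dim probe sets are compressed. No detection calls or scanner files were used, and the number of arrays limits the precision.

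The table held 45101 probe sets, 64 of them controls; 34945 had 1 gene symbol in GEO's platform annotation, 932 several and 9160 none listed, and 34741 of those with 1 symbol matched RefSeq by Entrez ID. For each of 18193 genes the probe set brightest on average in the fitted arrays was kept. Group means of the surgery arrays and, in a model of its own, of the naive arrays were fitted with limma 3.58.1 (R 4.3.3; lmFit and eBayes, contrasts by contrasts.fit). A gene passed when its p, adjusted over all genes by Benjamini and Hochberg, was under 0.05. All probe sets were fitted in the same way. Groups came from the labels. Covariation used 100000 two-sided permutations of arrays within groups (numpy 2.4.6). The fit and the permutations were tested on simulated data. Coordinates are RefSeq GRCm38.p6.

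The clock genes named are all 10 of the set with every probe set, the further clock genes called in a comparison, and the 3 most alike genes of each called one. The genes, gene lists and tests were chosen with earlier results of these data known. Other settings were another prior, a filter on dim genes, the mean of probe sets, median centring, repeated quantile normalization, array weights, the actin difference as covariate, a replicate block, a stricter threshold, only the groups compared, and each array left out. Same-numbered surgery arrays of different groups did not deviate together (median r = -0.01 over 22 pairs, against 0.02 over 120 differently numbered pairs). For naive arrays the median r was 0.14, from -0.09 to 0.36, over 7 pairs, against -0.02, from -0.42 to 0.45, over 49 differently numbered pairs. So few naive pairs cannot settle whether the numbers pair arrays, and the main fits use no pairing. No value of the deleted receptor's own gene is reported here.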

Additional observations from a re-analysis of the deposited data

Results flagged for a closer look

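Of 40 groups of 7 or 8 arrays tested (10 clock genes in 4 groups), 12 had an array whose gap to its nearest neighbour was large against the range of its group (Dixon's test at 95%). Chance flags about 1 in 20 groups. WT naive array 6 accounts for 7 of the 12: its log2 signals were 6.91 for Per1, 10.31 for Per2, 6.61 for Per3, 8.84 for Cry1, 6.14 for Cry2, 8.21 for Nr1d1 and 9.78 for Tef, above its group for Per2 and Cry1 and below it for the others. This array also stood apart over the whole table, with the largest actin difference (4.88) of the naive arrays.

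WT MCAO array 4 accounts for 3, with low signals of 7.72 for Per3, 10.03 for Nr1d2 and 9.04 for Dbp. Its actin difference was 1.70, the highest of WT MCAO, and its interquartile range 3.32, the lowest. KO naive array 4 was high for Per1 at 10.36 and Per2 at 9.16, and its actin difference of 0.82 was the highest of KO naive.

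The change after MCAO differed between knockouts and wild type by the interaction test for Per2 (1.30), Per3 (0.88) and Cry1 (0.68). Each of these calls was lost when single sham arrays were left out.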

How the results depend on the processing

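No called clock gene changed direction in any setting tried. The number of clock genes that passed after MCAO in knockouts (0 as reported) was 2 with the mean of probe sets, 1 with median centring, 3 with quantile normalization repeated, 4 with array weights and 1 with the actin covariate. In wild type (4) it was 2 at an adjusted p under 0.01. For the interaction (3) it was 1 without dim genes (Cry1 is then not tested), 1 with the mean of probe sets, 1 with quantile normalization repeated, 0 with the actin covariate and 0 at an adjusted p under 0.01, where 0 of all genes passed. Between genotypes after MCAO (0) it was 1 with the actin covariate. After sham (1) it was 0 without dim genes, with quantile normalization repeated, with the actin covariate and at an adjusted p under 0.01, 5 with array weights and 4 with only the groups compared. In naive mice (0) it was 1 with median centring and 2 with array weights. Leaving out each array in turn gave 0 to 2 in knockouts, 2 to 5 in wild type, 0 to 3 for the interaction, 0 to 4 after sham, and 0 in all cases after MCAO and in naive mice. The cause of these shifts was not tested. Of all 18193 genes, 4545 passed in knockouts as reported, 4243 with the mean of probe sets and 4441 with median centring. Quantile normalization repeated gave 3659 there and array weights 7239. With array weights both counts rose. With quantile normalization repeated the clock gene count rose while that over all genes fell. In naive mice 3708 genes passed with median centring, against 2669 as reported. With array weights the counts over all genes also rose after sham and in naive mice (below).

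The replicate block is a pairing that the surgery arrays did not show and the naive arrays could not settle. With it 3 genes passed in wild type (Per3 -0.63, adjusted p = 0.0504) and no other clock gene call changed. Pairs of clock genes that passed numbered 4 on surgery arrays and 0 on MCAO arrays alone. On naive arrays they numbered 18, and 1 in KO naive alone, 7 without WT naive array 6 and 6 with median centring as well, the last settings being chosen after seeing the data. Precision is limited by 3 sham arrays a genotype, and Cry1 lies in the dimmer part of the genes. Over all genes, counts moved by more than 1.5 times as follows. The interaction (1744) went to 561 without dim genes, 337 with quantile normalization repeated, 4100 with array weights and 8 with the actin covariate. After sham (1101) it was 402, 300, 5891 and 6 in the same settings, 3451 with only the groups compared and 6 at an adjusted p under 0.01. Knockouts (4545) had 2826 without dim genes, 7239 with array weights, 2856 with the actin covariate and 2170 at 0.01, and wild type (2901) had 4472 with array weights and 1286 at 0.01. After MCAO (8) it was 986 with the actin covariate, 2 at 0.01 and 3 with only the groups compared. Naive mice (2669) had 163 without dim genes, 1497 with quantile normalization repeated, 7637 with array weights, 6243 with the actin covariate and 1342 at 0.01, all with WT naive array 6 kept. Tests over all probe sets passed 3336 sets for the interaction, 2105 after sham, 8429 in knockouts, 4816 in wild type, 59 after MCAO and 9046 in naive mice. With 1 array left out the counts were 0 to 2692 for the interaction, 0 to 1830 after sham, 3 to 38 after MCAO, 1435 to 3231 in wild type and 2005 to 6641 in naive mice, and in knockouts they were lowest without KO sham array 3 (2337). After sham no gene passed without WT sham array 2 or without KO sham array 3.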
